A study of Mus musculus with 6 samples.

Results

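The macrophage genes of the mouse adrenal described here are Lyz2, Lgals3, Csf1r, Cd68, Ctss, Adgre1, Cd14 and Fcer1g. They were found as every probe set whose annotation names exactly 1 gene and that gene is one of these 8, which gave 13 of the 12488 probe sets on the array. A probe set is a group of short oligonucleotides that queries 1 transcript. 1 further probe set names a member beside another gene and was left out. RNA from adrenal glands of BPH, an inbred hypertensive strain, and of BPL, an inbred hypotensive strain, was read on MG_U74Av2 oligonucleotide arrays made by Affymetrix, with 3 arrays for each strain. No treatment, genetic change, sex or age is given in the sources used here, nor is the number of animals behind an array, so the p-values measure the spread between these arrays, which may in part be technical. The design sets BPH against BPL to find adrenal transcripts whose level goes with the blood pressure of the strain.

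Macrophages are phagocytes that live in most tissues, the adrenal cortex and medulla among them. Their survival depends on signals through the receptor that Csf1r encodes, and they digest what they engulf in lysosomes, where cathepsin S (Ctss) cuts proteins and where the membrane glycoprotein of Cd68 is found. Lyz2 encodes a lysozyme that attacks bacterial walls, Lgals3 a sugar-binding galectin, Cd14 a co-receptor for bacterial lipopolysaccharide, Fcer1g the signalling chain shared by several Fc receptors, and Adgre1 an adhesion-type surface receptor that is widely used to mark mouse macrophages. None of these genes is strictly limited to macrophages: Lgals3 is found in epithelia and fibroblasts, Cd14 in adipocytes and Fcer1g in mast cells.

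The promoters of 5 members are given because the question below is whether genes of 1 cell type moved together. Each run is the 250 bases before the start of the gene in the RefSeq table of GRCm38.p6, which is the C57BL/6J genome and neither of the strains studied, read 5′ to 3′ on the strand of the gene. Capitals mark matches on either strand to the core of the PU.1 site of myeloid genes (GAGGAA), the AP-1 site (TGANTCA) and the C/EBP site (TTNCNNAA).
Lyz2, chr10:117282273-117282522, minus strand: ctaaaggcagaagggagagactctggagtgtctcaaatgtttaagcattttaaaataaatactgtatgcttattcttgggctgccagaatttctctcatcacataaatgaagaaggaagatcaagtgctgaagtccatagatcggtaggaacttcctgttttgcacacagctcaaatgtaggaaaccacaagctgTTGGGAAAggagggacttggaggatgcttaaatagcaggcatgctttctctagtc
Lgals3, chr14:47373610-47373859, plus strand: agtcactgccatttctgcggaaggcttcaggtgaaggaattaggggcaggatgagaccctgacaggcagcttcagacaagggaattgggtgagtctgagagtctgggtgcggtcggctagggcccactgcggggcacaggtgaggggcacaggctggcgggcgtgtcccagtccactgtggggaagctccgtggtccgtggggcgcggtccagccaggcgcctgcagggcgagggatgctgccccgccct
Cd68, chr11:69666171-69666420, minus strand: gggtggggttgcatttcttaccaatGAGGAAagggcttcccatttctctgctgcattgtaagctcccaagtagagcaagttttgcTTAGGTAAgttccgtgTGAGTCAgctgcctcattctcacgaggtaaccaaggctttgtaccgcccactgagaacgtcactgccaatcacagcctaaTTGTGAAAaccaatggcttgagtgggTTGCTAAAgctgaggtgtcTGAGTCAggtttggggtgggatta
Ctss, chr3:95526536-95526785, plus strand: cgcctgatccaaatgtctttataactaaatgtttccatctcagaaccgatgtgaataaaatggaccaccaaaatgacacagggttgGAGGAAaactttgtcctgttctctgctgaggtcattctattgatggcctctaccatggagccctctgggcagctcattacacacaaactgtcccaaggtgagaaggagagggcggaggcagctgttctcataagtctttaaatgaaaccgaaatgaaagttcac
Fcer1g, chr1:171234350-171234599, minus strand: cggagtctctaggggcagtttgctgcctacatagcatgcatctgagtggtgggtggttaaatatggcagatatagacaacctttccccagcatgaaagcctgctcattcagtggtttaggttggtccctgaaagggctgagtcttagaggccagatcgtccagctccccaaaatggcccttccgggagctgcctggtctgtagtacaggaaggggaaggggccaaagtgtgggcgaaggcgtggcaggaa

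The PU.1 core was found in the Cd68 and Ctss windows, and in 23.3% of the 32851 RefSeq promoter windows of the same length. The AP-1 letters occurred at 2 places in the Cd68 window, 149 and 24 bases before the start, and in 6.75% of all windows. The C/EBP letters occurred at 3 places in Cd68 and at 1 in Lyz2, and in 36.8% of all windows. None of these letters was found in the Lgals3 and Fcer1g windows. The E-box CACGTG was searched as well and was in none of the 5 windows, against 6.02% of all. A match is a run of letters and no evidence of binding, and no match says only that these letters are not in the window.

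No tested macrophage gene passed the test between the strains. At the brightest probe set of each gene the estimated difference was lower in BPH only for Cd68 and Cd14, whose intervals cross 0. Of the 13 probe sets, 7 were bright enough to be tested, and they cover 6 genes: Lyz2, Lgals3, Csf1r, Cd68, Ctss and Cd14. In limma, with Benjamini-Hochberg adjustment over all 7293 tested probe sets, 0 of the 7 had an adjusted p under 0.05, where 2.52% of all tested probe sets did (1.56% higher in BPH and 0.960% lower). At an unadjusted p under 0.05 there were 3 of the 7, against 19.3% of all. In these 3, of Lyz2, Lgals3 and Csf1r, every BPH array lay above every BPL array, a separation seen in that direction in 14.9% of all tested probe sets. In the other 4 the strains overlapped. Since only bright probe sets entered the test, these counts do not speak for the whole set.

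Lyz2, the lysozyme gene, had an intensity of 3379.7, 2959.3 and 3106.7 on the BPH arrays and of 2243.6, 2172.8 and 2278.2 on the BPL arrays. The lowest BPH array stood 1.30 times above the highest BPL array, and the spread inside each strain was narrow. Lyz2 averaged 3149 ± 213.3 over the BPH arrays, against 2232 ± 53.7 over the BPL arrays (SD, n = 3 each), and the log2 difference, BPH minus BPL, was 0.49 (SE 0.13, 95% interval 0.20 to 0.79, limma adjusted p = 0.0871). It ranked 388 of the 7293 tested probe sets by p. A dim probe set of the same gene, 162309_at, ran the other way, with 40.5, 33.3 and 57.1 on the BPH arrays and 114.0, 298.0 and 276.4 on the BPL arrays. Its BPH arrays all lay below its BPL arrays, as in 9.59% of the untested probe sets. 4 of these 6 values lay under the floor of 201.3, a low limit to which values are raised before the fit, and the probe set was not tested.

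Lgals3, the galectin gene, differed most in size among the tested members. Its intensity was 1512.2, 1217.3 and 1531.9 on the BPH arrays and 624.9, 478.3 and 1006.3 on the BPL arrays. BPL 3 stood apart from BPL 1 and BPL 2 and came close to BPH 2, so that the strains were separated by a factor of 1.21 at their nearest arrays. Lgals3 averaged 1420 ± 176.2 over the BPH arrays, against 703.2 ± 272.6 over the BPL arrays (SD, n = 3 each). The log2 difference of 1.08 (SE 0.31, 95% interval 0.38 to 1.77) is a 2.11-fold difference and was not called (limma adjusted p = 0.102). The call turned on 1 array: without BPL 3 the difference was 1.37 and the limma adjusted p 0.0348. Over the alternatives that set more than 1 BPH array against BPL it ranged from 0.0348 to 0.35.

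Csf1r, the receptor on which macrophages depend, was read by 2 tested probe sets, whose differences had opposite signs. At 104354_at the intensity was 3045.2, 2560.4 and 2984.7 on the BPH arrays and 2264.6, 1844.2 and 2232.8 on the BPL arrays. BPH 2 was low within its strain and BPL 2 within its own, and the strains lay 1.13 times apart at their nearest arrays. The log2 difference was 0.44 (SE 0.15, 95% interval 0.09 to 0.79, limma adjusted p = 0.166). At 161832_r_at the intensity was 839.4, 852.5 and 1014.1 on the BPH arrays and 1281.0, 845.8 and 974.1 on the BPL arrays, which overlap, with a log2 difference of -0.18 (SE 0.25, 95% interval -0.75 to 0.39, limma adjusted p = 0.738) that shrank to -0.01 without BPL 1. Averaged over both probe sets, the Csf1r difference was 0.13 (adjusted p = 0.733).

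The lysosomal members Cd68 and Ctss did not differ beyond the spread of their arrays. Cd68 had an intensity of 1658.6, 1260.6 and 1612.0 on the BPH arrays and 1646.3, 1417.6 and 1573.1 on the BPL arrays. The 2 strains cover nearly the same range, and the log2 difference was -0.04 (SE 0.19, 95% interval -0.46 to 0.38, limma adjusted p = 0.925). Ctss had 4353.9, 3969.2 and 3177.3 on the BPH arrays and 3886.3, 2984.7 and 4439.1 on the BPL arrays. Its highest and its lowest array are both BPL, and the log2 difference was 0.03 (SE 0.18, 95% interval -0.39 to 0.45, limma adjusted p = 0.944), with a sign that turned to -0.01 under quantile normalization. For neither gene does the interval exclude a difference of 0.38 in either direction.

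Cd14, the lipopolysaccharide co-receptor gene, had intensities of 4066.0, 3949.8 and 3998.8 on the BPH arrays and of 4806.3, 4639.9 and 4018.2 on the BPL arrays. The BPH arrays lay close together, and BPL 3 fell among them while BPL 1 and BPL 2 stood higher. The log2 difference was -0.16 (SE 0.12, 95% interval -0.44 to 0.12, limma adjusted p = 0.514). Its negative difference was kept under quantile normalization (-0.20) and under scaling to one median (-0.14).

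**Figure D1:**
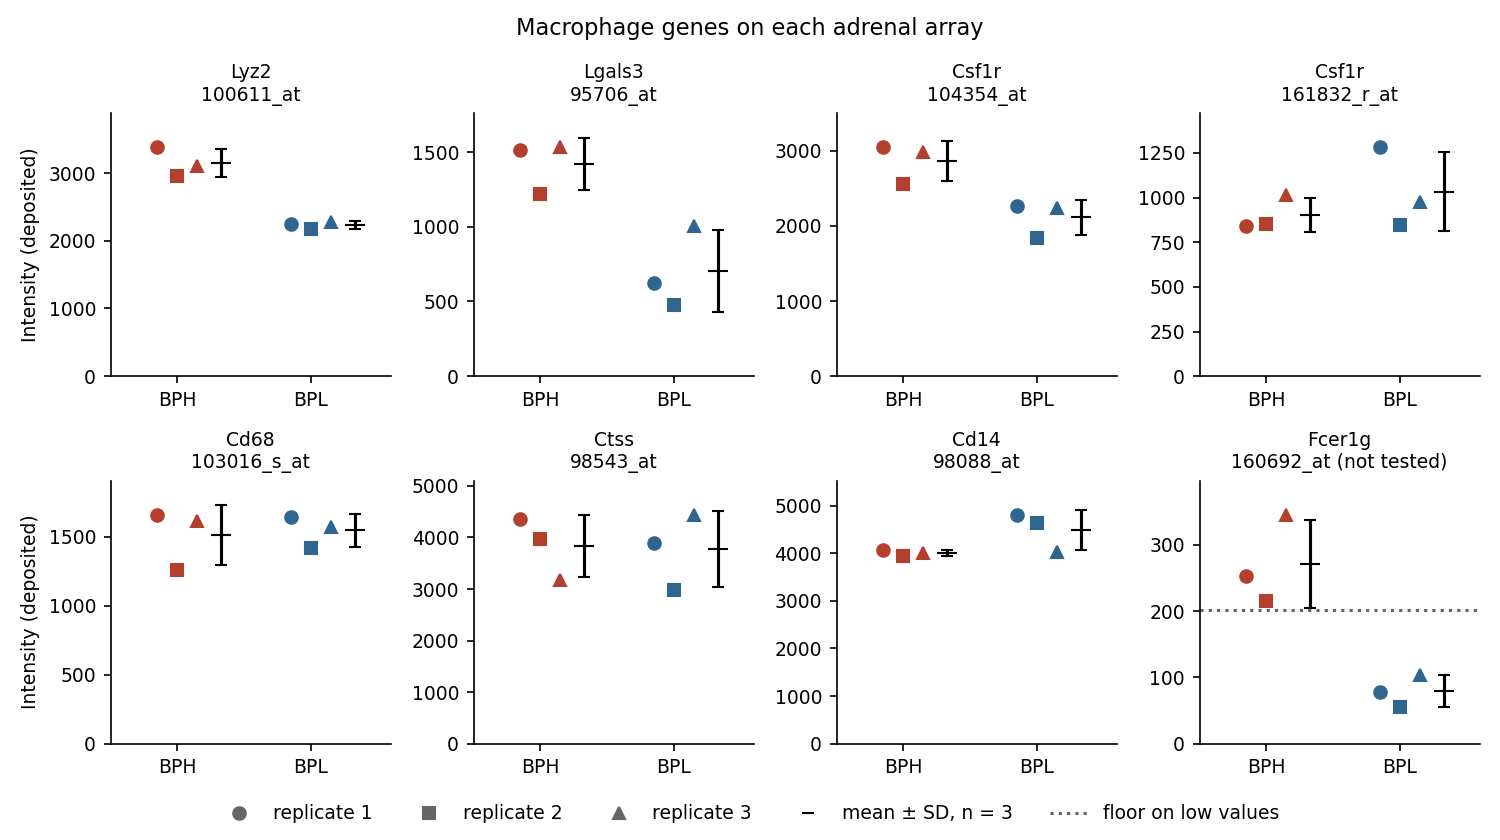
Intensity as deposited (vertical axes, linear from 0) of the 7 tested macrophage probe sets and of Fcer1g 160692_at on each array, with BPH left of BPL, marker shape for the replicate, and the mean ± SD (n = 3) beside the points. The BPH arrays lie wholly above the BPL arrays for Lyz2 100611_at, Lgals3, Csf1r 104354_at and Fcer1g, whose BPL values all lie under the dotted floor of 201.3, and the strains overlap in the other panels.

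Fcer1g and Adgre1 were too dim to be tested. The mean of their probe sets lay under the filter, an intensity of 668.1. Fcer1g, the Fc receptor chain, had 252.7, 215.3 and 345.4 on the BPH arrays and 78.3, 55.8 and 103.9 on the BPL arrays at 160692_at. All 3 BPL arrays lay under the floor and all 3 BPH arrays above it, with 4.29% of the untested probe sets separated in that direction. The size of the difference therefore depends on the floor. With the filter removed its log2 difference was 0.40 (SE 0.18, limma adjusted p = 0.439), and with the floor lowered to 91.5 as well, an alternative chosen after seeing the data, it was 1.48 (SE 0.20, adjusted p = 0.0790), with BPL 1 and BPL 2 still raised to the floor. The same setting gave -1.21 (SE 0.39, adjusted p = 0.275) for the dim Lyz2 probe set 162309_at, against 0.49 for the bright one. All 3 BPH arrays of the dim probe set were raised to the floor, so this size depends on the floor too. Without the filter 0.419% of 12422 probe sets were called, and 0.314% with the lower floor too. The other Fcer1g probe set, 162181_f_at, had 130.0, 190.5 and 170.2 on the BPH arrays and 89.7, 223.2 and 68.0 on the BPL arrays, which overlap.

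Adgre1, the classical surface marker of mouse macrophages, was near the bottom of the scale in both strains. At 103507_at its intensity was 105.9, 156.7 and 479.3 on the BPH arrays and 163.1, 134.2 and 300.4 on the BPL arrays, so that 2 arrays of each strain lay under the floor. At 161377_at no BPH array exceeded 141.4 and no BPL array 231.3. Both probe sets overlapped between the strains, and most of their values lay under the floor, so the level of this defining marker is not settled here. A second Cd68 probe set, 162173_i_at, was also untested, at 10.8 to 54.9 on the BPH arrays and 47.3 to 248.2 on the BPL arrays. Of the 6 untested member probe sets, 0 were called in limma without the filter, with 0 at an unadjusted p under 0.05. With the lower floor too, 0 were called, and those of Fcer1g (160692_at, unadjusted p = 0.000521) and Lyz2 (162309_at, unadjusted p = 0.0259) lay under 0.05 in opposite directions. Both p-values depend on the floor, to which BPL 1 and BPL 2 of the former and all BPH arrays of the latter were raised.

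**Figure D2:**
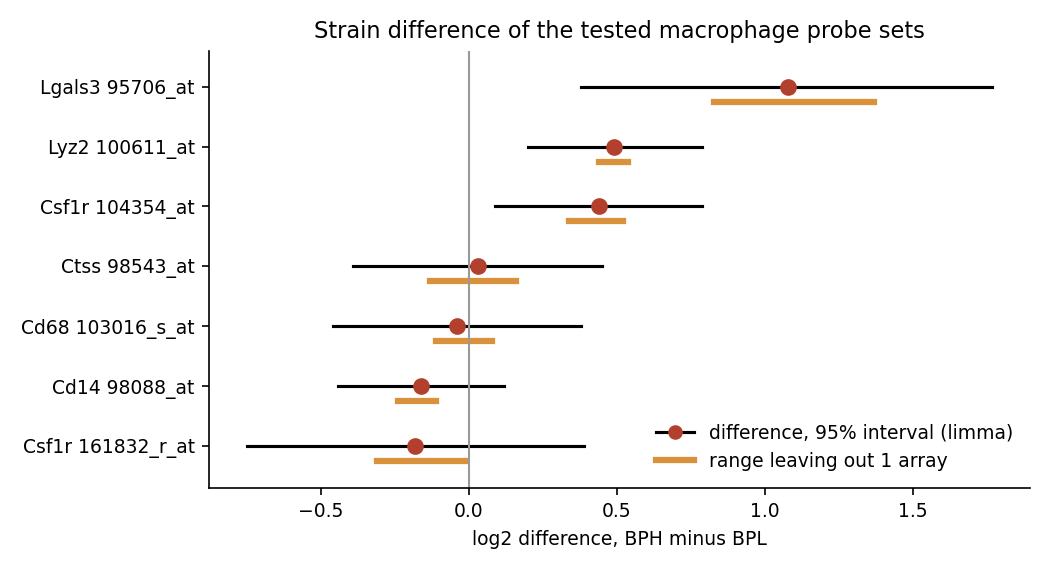
The log2 difference, BPH minus BPL (horizontal axis), of the 7 tested macrophage probe sets (rows), with the 95% interval of limma in black and in orange the range of the difference when 1 array at a time is left out. The intervals of Lgals3, Lyz2 and Csf1r 104354_at lie above 0, those of the other 4 cross it, and 0 of the 7 passed the adjusted test.

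Whether members moved together was asked over the 6 arrays, each gene by its brightest tested probe set. Of the 15 pairs of genes, 11 had a positive Pearson correlation and 4 a negative one, all 4 of them with Cd14. The 3 pairs among Lyz2, Lgals3 and Csf1r had the highest values. Csf1r correlated with Lgals3 at r = 0.93 (exact permutation p = 0.00556, two-sided, n = 6) and Spearman rho = 0.89 (exact permutation p = 0.0333). Csf1r with Lyz2 gave r = 0.93 (exact permutation p = 0.00972) and rho = 0.94 (exact permutation p = 0.0167), and Lyz2 with Lgals3 gave r = 0.89 (exact permutation p = 0.0139) and rho = 0.94 (exact permutation p = 0.0167). After adjustment over the 15 pairs the exact permutation p of each was 0.0694 for r, so 0 pairs passed, and the smallest adjusted p for rho was 0.125. With the 2 arrays farthest from the median of Lgals3 left out, which were BPL 1 and BPL 2, r was 1.00 for Lgals3 with Csf1r. BPL 3 was then the only BPL array and the lowest array left for both genes, at 1006.3 for Lgals3 and 2232.8 for Csf1r. This r thus still holds the strain difference. With the 2 farthest from the median of Lyz2 left out, it was 0.80 for Lyz2 with Csf1r and 0.78 for Lyz2 with Lgals3. These 3 genes are the ones whose strains separate, so the pooled values hold the strain difference. With each array set against its own strain mean, r was 0.74 for Lgals3 with Csf1r, 0.75 for Lyz2 with Csf1r and 0.53 for Lyz2 with Lgals3, lower than the pooled values in all 3 pairs and given without a test. Lgals3 and Cd14 ran opposite, with r = -0.88 (exact permutation p = 0.0542, adjusted 0.203) and rho = -0.66 (exact permutation p = 0.175). Without BPL 1 and BPL 2 r was 0.29, with BPL 3 the only BPL array left. With each array set against its own strain mean r was -0.76, given without a test.

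Inside each strain 1 array was low for most tested members. BPH 2 was the lowest BPH array for 5 of the 6 genes, all but Ctss, and for 30.9% of all 5555 tested genes. BPL 2 was the lowest BPL array for 5 of 6, all but Cd14, and for 41.5% of all genes. BPH 1 was the highest BPH array for 5 of 6, against 32.3% of all genes. Deviations from the strain means on the log2 scale, BPH 2 and then BPL 2, were -0.21 and -0.49 for Lgals3, -0.16 and -0.19 for Csf1r, -0.25 and -0.12 for Cd68, -0.09 and -0.04 for Lyz2, 0.06 and -0.32 for Ctss, and -0.02 and 0.05 for Cd14. The mean of the other macrophage genes, described further on, was highest of the BPH arrays on BPH 2, at 10.75. Of the 15 correlations between the deviations of 2 members 11 were positive. They ran from -0.76 for Lgals3 with Cd14 to 0.91 for Csf1r with Cd68, and Csf1r with Cd68 was the only pair that deviated with the same sign on 6 of 6 arrays. Cd68 with Ctss gave 0.21, Lyz2 with Cd14 -0.06 and Ctss with Cd14 -0.45.

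Markers of other tissues varied between the same arrays. The mean log2 level of 6 tested brown fat genes was 12.33, 11.50 and 12.02 on the BPH arrays and 13.42, 14.11 and 12.84 on the BPL arrays, a difference of -1.51, and highest on BPL 2. Of these 6 genes 1 was called, lower in BPH: Ucp1, the uncoupling protein of heat production (-2.68, limma adjusted p = 0.0137). The mean level of 12 general fat genes, which bear on Cd14 as a gene that adipocytes use too, was 13.58, 13.41 and 13.62 on the BPH arrays and 13.80, 14.43 and 13.54 on the BPL arrays. Of these 12, 10 were negative with a median of -0.34, and 1 was called, lower in BPH: Lipe, the hormone-sensitive lipase (-1.25, limma adjusted p = 0.0376). The mean of 12 skeletal muscle genes was 13.45, 10.86 and 9.49 on the BPH arrays and 9.53, 13.58 and 9.92 on the BPL arrays, so BPH 1 and BPL 2 carried the most muscle transcripts. BPH 2 stood next, with Acta1 at 5529.3 against 1549.0 on BPH 3, 320.6 on BPL 1 and 1833.2 on BPL 3. The mean of 6 genes of the adrenal medulla was 14.88, 14.56 and 14.77 on the BPH arrays and 14.01, 13.50 and 14.76 on the BPL arrays. This is a difference of 0.65, against 0.31 for the mean level of the 6 tested members. All 6 medulla genes were positive with a median of 0.74, 0 were called and 4 had an unadjusted p under 0.05. BPL 3, which is high for Lgals3 and Ctss, is high for the medulla genes as well, and BPL 2 is their lowest array. Cortex genes varied little, between 16.02 and 16.19 on the BPH arrays and 15.91 and 16.12 on the BPL arrays. In whole glands, fewer cells of a type and less RNA per cell cannot be told apart. The part of adherent tissue in the member differences was not tested. Without BPH 1 and BPL 2, which leaves BPH 2 in, the log2 differences were 0.42 for Lyz2, 0.78 for Lgals3, 0.30 for Csf1r at 104354_at and -0.15 for Cd14, none of them called. BPH 1 and BPH 2 were also run on another fluidics station, the device that washes and stains arrays, than the other 4 arrays. Within the shared station, BPH 3 alone against the 3 BPL arrays, the log2 differences were 0.48 for Lyz2, 1.19 for Lgals3, 0.50 for Csf1r at 104354_at, 0.06 for Cd68, -0.23 for Ctss and -0.16 for Cd14. The spread in that fit comes from the BPL arrays alone and 7 of 7293 probe sets were called in it, so it serves as a value and not as a test.

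**Figure D3:**
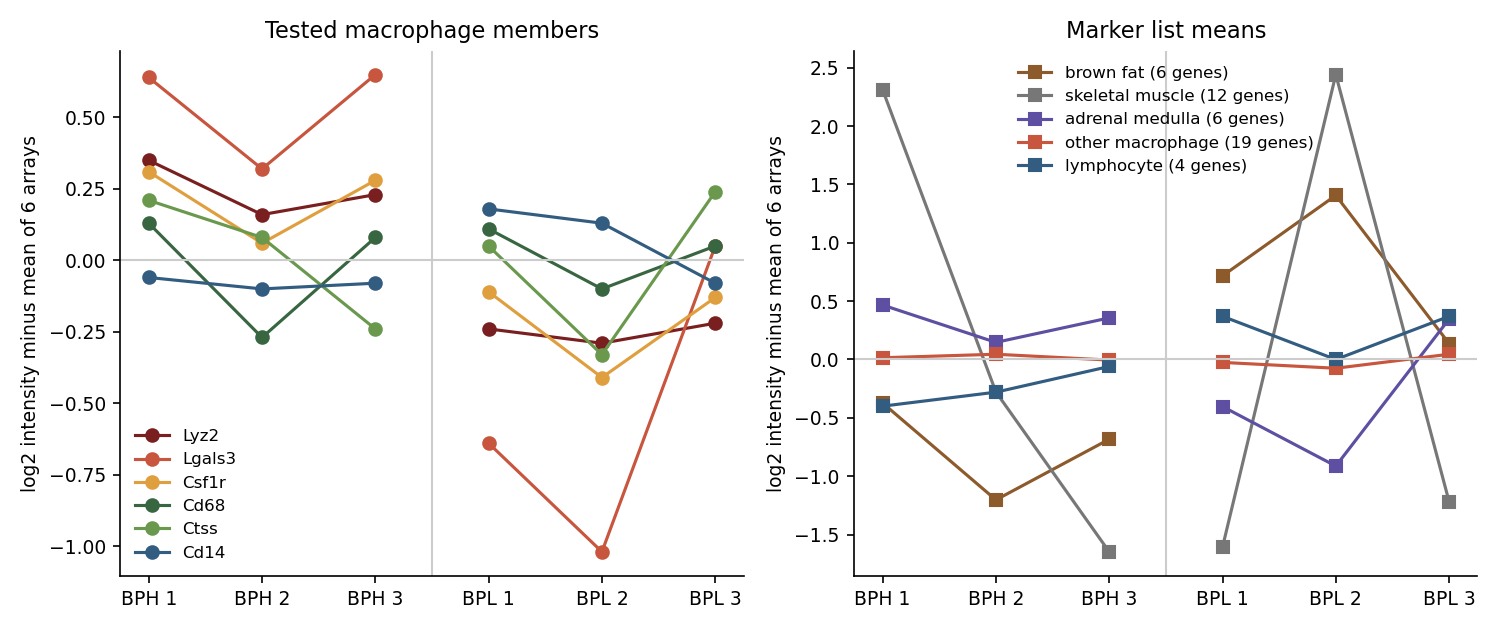
Log2 intensity minus its mean over the 6 arrays (vertical axes) for the 6 tested macrophage genes (left) and for the mean of 5 marker lists (right), by array, with BPH left of BPL. Lines join the points of a gene or list and imply no order among replicates. BPL 2 is lowest of its strain for 5 of 6 members and highest for brown fat. The mean of the other macrophage genes stays near 0 throughout, while the strain differences of its single genes run from -0.87 to 1.20.

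The wider set of macrophage and myeloid genes had differences of both signs. Of 48 listed genes 38 were on the array and 19 were tested. Of these 0 were called in limma, 9 were positive and 10 negative, 6 had an unadjusted p under 0.05, and the median log2 difference was -0.04, against 0.04 over all 5555 tested genes, of which 2.43% were called, 1.53% higher and 0.900% lower in BPH. For the members the median over 6 tested genes was 0.24, with 4 positive. The mean log2 level of the 19 genes lay between 10.70 and 10.75 on the BPH arrays and between 10.63 and 10.75 on the BPL arrays. C1qb, a chain of the complement starter C1q that macrophages make, had 1469.1, 1691.3 and 1234.8 on the BPH arrays and 2752.3, 1937.2 and 3037.7 on the BPL arrays. Every BPH array lay below every BPL array, with a log2 difference of -0.80 (SE 0.21, limma adjusted p = 0.0867), while a second C1qb probe set gave -0.14 (adjusted p = 0.751). C1qc, of the same complex, had a log2 difference of -0.38 (adjusted p = 0.198). C1qa, the remaining chain, which was looked up after the values of C1qb and C1qc were seen, had 0.07 (adjusted p = 0.857). In the other direction Mrc1, the mannose receptor of resident macrophages, had 1257.6, 1269.7 and 1367.6 on the BPH arrays and 930.2, 970.2 and 543.3 on the BPL arrays, a log2 difference of 0.72 (SE 0.28, adjusted p = 0.204), and the chemokine gene Ccl6 had 0.98 (adjusted p = 0.229).

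Genes around the Csf1 receptor gave 1 call. Of 11 tested genes 1 was called higher and 0 lower, 5 were positive and 6 negative, with a median log2 difference of -0.10. An unadjusted p under 0.05 was found for 4. On all BPH arrays 3 lay above BPL and 0 below, against 15.5% and 11.1% of all tested genes. The called gene was Cebpb, a transcription factor of myeloid cells, adipocytes and the acute response, and thus not specific to macrophages. Its intensity was 21492.2, 22561.6 and 24496.2 on the BPH arrays and 13943.4, 17008.4 and 14043.5 on the BPL arrays, a log2 difference of 0.61 (SE 0.13, limma adjusted p = 0.0422). Csf2ra, a receptor chain for a related growth factor, had 1297.8, 1499.2 and 1644.6 on the BPH arrays and 828.4, 614.3 and 1011.4 on the BPL arrays and was not called (0.88, SE 0.25, adjusted p = 0.102). Kitl (0.63, adjusted p = 0.234) and Cebpa (-0.56, adjusted p = 0.243) were not called. The ligand gene Csf1 itself averaged 2251 ± 110.7 over the BPH arrays, against 2882 ± 860.7 over the BPL arrays (SD, n = 3 each), a log2 difference of -0.32 (adjusted p = 0.443).

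Of the lysosome list, 30 of 36 genes were tested, with 0 called higher, 1 called lower and a median of -0.02. The called gene was Ctse, an aspartic protease of the cathepsin group that is found in stomach and immune cells rather than in lysosomes generally. It had 2587.4, 2304.1 and 3110.8 on the BPH arrays and 10147.8, 9067.4 and 8761.5 on the BPL arrays, a log2 difference of -1.81 (SE 0.14, limma adjusted p = 0.000612), and its other tested probe set was called too (-1.37, SE 0.18, adjusted p = 0.00620). Asah1, the acid ceramidase, had a log2 difference of 0.47 (adjusted p = 0.0789), Npc1, which exports cholesterol from lysosomes, 0.37 (adjusted p = 0.129), and Ctsd, the main aspartic protease there, -0.34 (adjusted p = 0.185). None of these 3 was called. Over the whole list 5 of 30 genes lay above BPL on all BPH arrays and 4 below, against 15.5% and 11.1% of all tested genes.

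The partners of Fcer1g, Cd14 and Lgals3 gave no calls. Of Fc receptor and kinase genes 4 were tested, with 0 called, 0 at an unadjusted p under 0.05 and a median of -0.12. Fcgr1, the high affinity receptor for immunoglobulin G that signals through the Fcer1g chain, had 288.4, 704.7 and 775.4 on the BPH arrays and 1142.5, 967.9 and 852.5 on the BPL arrays, with a log2 difference of -0.86 (SE 0.41, limma adjusted p = 0.295), the opposite sign to Fcer1g at 160692_at. Tyrobp, an adaptor of the same kind, had 0.28 (adjusted p = 0.501). Of lipopolysaccharide sensing genes 6 were tested, with 0 called and 0 at an unadjusted p under 0.05, a median of 0.19 and the smallest p for Nfkbia (0.29, adjusted p = 0.271). Of galectins and their binding protein 6 were tested with 0 called, 1 at an unadjusted p under 0.05 and a median of -0.21. Lgals3bp, which encodes a glycoprotein that binds the Lgals3 product, had 4456.6, 5461.5 and 4415.4 on the BPH arrays and 6924.8, 6061.9 and 7728.5 on the BPL arrays. Its BPH arrays lay wholly below its BPL arrays, and the log2 difference was -0.53 (SE 0.14, limma adjusted p = 0.0896). Lgals1 had -0.08 (adjusted p = 0.786).

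Of 32 genes that activated macrophages induce, 29 were on the array and 1 was tested, Mmp12 (0.32, adjusted p = 0.504). Other immune cells were covered thinly. Of neutrophil and monocyte genes 4 were tested, with 0 called and a median of -0.25, and of mast cell genes 2, with 0 called and a median of -0.16. Of lymphocyte genes 4 were tested, all 4 negative and 0 called in limma, 1 of them at an unadjusted p under 0.05, with a median of -0.56. Their mean log2 level was 10.34, 10.46 and 10.68 on the BPH arrays and 11.11, 10.74 and 11.11 on the BPL arrays. Ighm, the heavy chain of immunoglobulin M, had the smallest p of them (-0.53, adjusted p = 0.145), and its second tested probe set gave -0.74 (adjusted p = 0.0721). Fibroblast genes, which matter for Lgals3, had a median of 0.07 over 11 tested genes, 7 positive and 4 negative, with 0 called. The 4 at an unadjusted p under 0.05 were all higher in BPH. Dcn, a matrix proteoglycan, had the smallest p (0.52, limma adjusted p = 0.0612), followed by Fn1 (0.74), Pdgfra (0.64) and Mfap5 (0.92). On all BPH arrays 5 of the 11 lay above BPL and 0 below, against 15.5% and 11.1% of all tested genes. Their part in the Lgals3 difference was not tested.

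**Figure D4:**
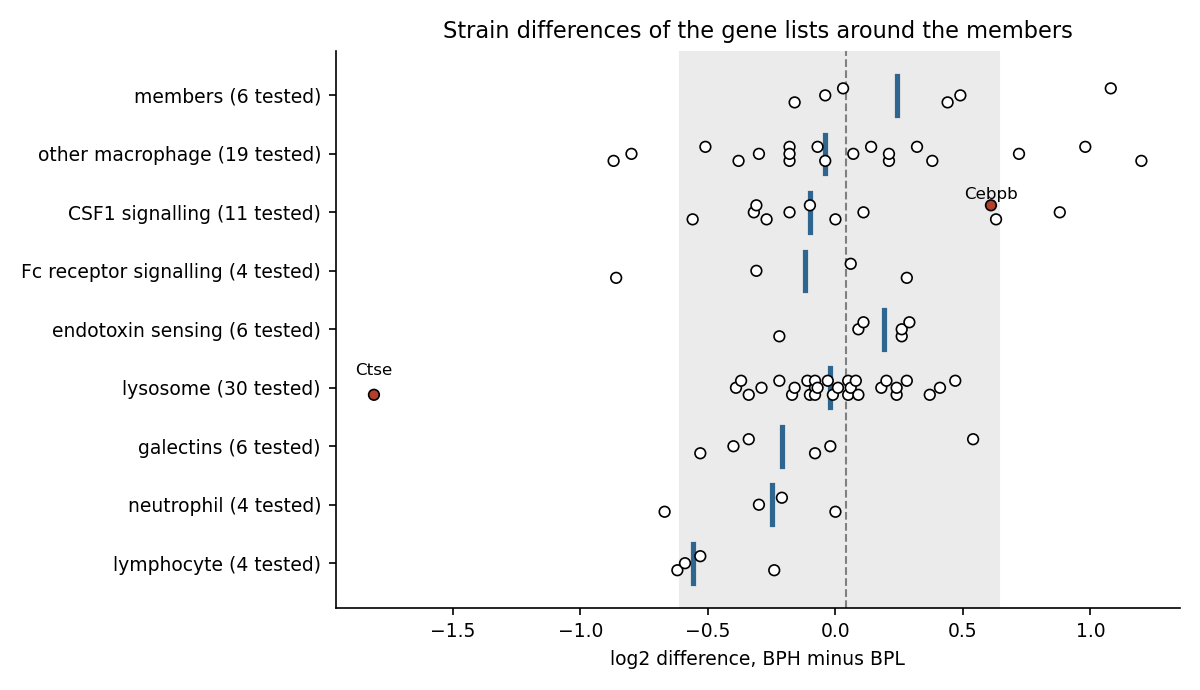
Log2 difference, BPH minus BPL (horizontal axis), of each tested gene in 9 lists (rows). Blue bars are list medians, filled points are the called genes Cebpb and Ctse, the dashed line is the median of all tested genes at 0.04 and the grey band holds their middle 90%, from -0.61 to 0.64. The members centre at 0.24 and run from -0.16 to 1.08. The other macrophage genes centre at -0.04 and run from -0.87 to 1.20.

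The genes whose levels followed the mean of the 6 tested members most closely were not immune genes. By Pearson correlation over the 6 arrays among 5549 other tested genes they were Vps53 (0.990), a tethering protein of vesicle traffic, Brd2 (0.990), a chromatin reader, Eif3k (0.989), a translation initiation subunit, Tmem179b (0.989) and Zhx1 (0.987), a zinc finger factor. Spearman rho was 0.94 for Brd2 and 1.00 for the other 4. They were picked for this likeness from many genes over few arrays, so no test applies. The members were centred but not scaled to a common spread. Lgals3, from -1.02 to 0.65 about its mean, therefore weighs most in the member mean, and Cd14, from -0.10 to 0.18, little. None was called between the strains, with log2 differences from 0.20 for Vps53 (adjusted p = 0.419) to 0.66 for Brd2 (adjusted p = 0.234).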

How the data were processed

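The intensities are the authors' deposited values, linear, 1 per probe set and array (the name of the summarising software: not given in the sources used here). Their mean after trimming 2% at each end lay between 2499.5 and 2499.6, so no scaling was added, and the array medians ran from 1003.5 to 1114.7. Deposited run files, per the file headers, place BPH 1 and BPH 2 on fluidics station 2 and the other 4 arrays on station 1, with 1 chip lot; their entries are settings (other), not measurements. Depth has no meaning for arrays, and the number of arrays limits the precision.

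Values under the 20th percentile of the table (201.3) were set to it, and log2 taken. The 66 control probe sets and those whose mean log2 value lay under the log2 of the 40th percentile (668.1) were left out, leaving 7293 probe sets, which entered 1 linear model per probe set (limma 3.58.1, lmFit and eBayes, trend on, in R 4.3.3). Tests are two-sided. SDs are of deposited intensities. The fit was also run on simulated data, only to see that differences put in were returned. The simulated arrays were independent and their spreads shuffled between probe sets, so this does not test the intensity trend or shared array effects. Gene names come from the platform annotation (1 gene for 10855 probe sets, several for 396, none for 1237), and 10839 were matched by gene number to RefSeq GRCm38.p6. In lists a gene is read from its brightest tested probe set. Named genes are all members, up to 4 genes with the smallest p per list and the 5 most alike. C1qa, Csf1 and Lgals1 fall outside this rule and were added after their values were seen. Members and lists were chosen with earlier results of these data known. Same-numbered arrays of the strains had deviations correlating at -0.219, -0.084 and 0.012. These values gave no sign of a pairing but cannot exclude one, and the labels do not speak of it.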

Additional observations from a re-analysis of the deposited data

How the results depend on the processing

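With 3 arrays a strain, leaving out 1 array moved the count of called probe sets, 184 in all, to between 42 (without BPH 2) and 361 (without BPL 3). It was 52 without the filter, 39 without the filter and with the lower floor, 83 without the intensity trend, 48 at an adjusted p under 0.01, 18 with the fluidics station as a block and 7 within station 1, which holds BPH 3 and the BPL arrays. The cause was not tested. Leaving aside the station fits, which cannot serve as tests, the count of called member probe sets was 0 under every alternative run but 1. It was 1 (Lgals3, 1.37) without BPL 3, so its leave-one-out range is 0 to 1. Of the 143 tested genes in the lists other than the members, 4 were called (Cebpb, Ctse, Ucp1 and Lipe), where 2.43% of all tested genes were. The count was 1 of 249 without the filter, and from 1 to 13 with 1 array left out. With the replicate block, which the labels do not support as a pairing, 124 probe sets and 0 members were called, and the adjusted p was 0.183 for Lyz2, 0.130 for Lgals3 and 0.237 for Csf1r at 104354_at; the block cannot move the differences themselves.

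Lyz2, Lgals3, Cd14 and Csf1r at 104354_at kept their sign under all alternatives in which they were tested; Csf1r at 161832_r_at (-0.18) came to -0.01 without BPL 1 and within station 1. The station block gives the same differences as station 1 alone, since station 2 holds BPH arrays only, so both are 1 check, of BPH 3 against the BPL arrays. They were 0.48 for Lyz2, 1.19 for Lgals3, 0.50 for Csf1r at 104354_at and -0.16 for Cd14. Cd68 turned to 0.06 there, and ran from -0.11 to 0.08 with 1 array left out (0.08 without BPH 2 and 0.01 without BPL 1). Ctss turned to -0.23 there and also without BPH 1 and BPL 2 together, to -0.01 under quantile normalization, to -0.07 without BPH 1, to -0.13 without BPL 2 and to 0.00 without BPH 2, in a leave-one-out range up to 0.16. Neither gene was called in any of the fits outside the station check, which gives values only. The filter at the 60th percentile of intensity left Lgals3, Cd68 and one Csf1r probe set untested.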
